A study of Pleurodeles waltl with 9 samples.

Results

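The comparison described here set the dorsal iris of Pleurodeles waltl, the Iberian ribbed newt, at 4 days post-lentectomy (4 dpl, labelled 4dpl) against the dorsal iris at 1 day post-lentectomy (1 dpl, labelled 1dpl). It used 6 of the 9 libraries of the series, 3 for each time, and no library of intact eyes entered the test. Transcripts were chosen by their level alone. Those whose 6 values averaged 20 or more were tested, which gave 44589 of the 295141 transcripts in the table. The lowest mean tested was 20.0048 and the highest mean left out was 19.9999, with 721 transcripts between 20 and 21 and 709 between 19 and 20.

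All animals were newts of 13 months, anaesthetised with tricaine before the lens was removed, and the dorsal iris of 4 animals was pooled into each library. The intact group, used here only as a point of reference, came from animals of the same age whose lens was in place. Pooling hides differences between animals, so the spread between libraries is that between pools. The labels name no line, genotype or further treatment, and none of the labelled groups was operated on with the lens left in place. The labels number the 3 libraries of each group as replicates, and the methods call them biological replicates.

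In newts, a removed lens is replaced from the pigment epithelium of the dorsal iris. These cells lose their pigment, re-enter the cell cycle and turn into lens cells, while the ventral iris normally does not form a lens. In the days before a lens vesicle is seen, the wound in the cornea closes, blood-borne cells enter the eye and extracellular matrix is remodelled. A dissected iris holds pigment epithelium, stroma, muscle, vessels and any immune cells present, so its RNA is a mixture. In such bulk tissue, a change in the number of cells of a type and a change of RNA per cell cannot be told apart.

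The values are 1 number per transcript and library that the authors named average TPM, where TPM is a measure of a transcript's level per length, scaled to a fixed total. Column totals lay between 19510000 and 22023400 in the 6 libraries, so the scale is larger than that of TPM, and the number of reads behind a value is not known. Column totals averaged 20870300 ± 1004880 (SD, n = 3) at 1 dpl and 20548800 ± 1022730 (SD, n = 3) at 4 dpl (exact two-sided permutation test, p = 0.7, where 0.1 is the smallest p that 3 against 3 allows). The IDs are not paired with gene names: none of them was found among the 59059 genes of the reference table. Cell type markers, and the identity of the tissue, were therefore not checked, and transcripts are described by level, by direction and by kind of ID. IDs are of 2 kinds, those that begin with mRNA (22591 of the transcripts tested) and those that StringTie assigned while assembling the reads (21998).

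The libraries of the 2 times separated along the first principal component of log2(value + 1), which held 37.4% of the variance. The 4 dpl libraries had scores of 134, 121 and 114, and 1 dpl replicates 1, 2 and 3 had scores of -92.3, -93.9 and -182. Component 2, with 20.1% of the variance, parted 1 dpl replicate 3 from 1 dpl replicates 1 and 2. Replicate 3 had a score of 153 on it, whereas replicates 1 and 2 had -113 and -101 and the 4 dpl libraries lay between -32.3 and 48.6. The times thus separated along component 1, and 1 dpl replicate 3 lay apart from its group on both components. Component 1 therefore held a part of its distance as well, at -182 against -92.3 and -93.9.

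**Figure D1:**
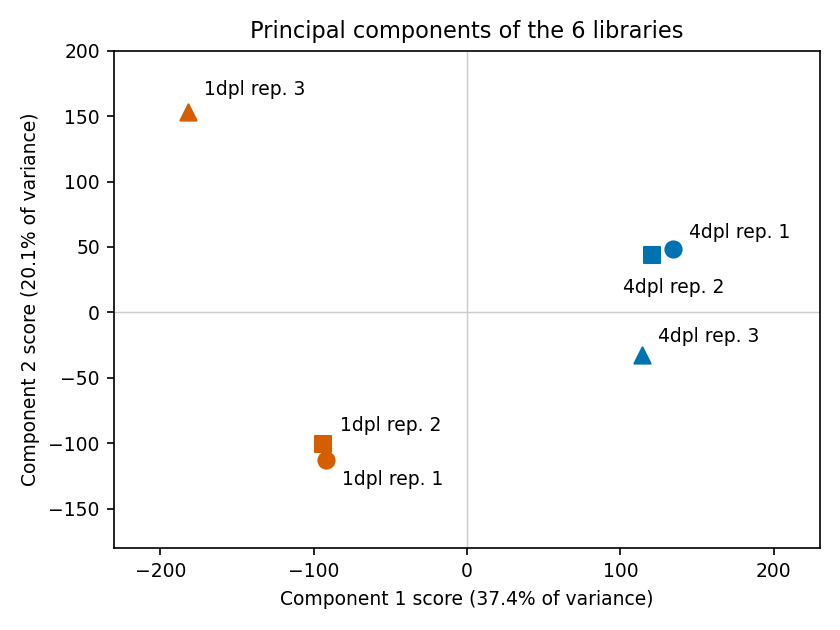
Scores of the 3 libraries at 1 dpl (orange) and the 3 at 4 dpl (blue) on the first (x axis) and second (y axis) principal components, without units, over 44589 transcripts. The groups lie apart on component 1, and 1 dpl replicate 3 lies apart from 1 dpl replicates 1 and 2 mainly on component 2, at 153 against -113 and -101.

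Between 1 and 4 dpl, 1642 transcripts changed at an adjusted p under 0.05 (limma on log2(value + 1), Benjamini-Hochberg adjustment), which is 3.68% of those tested. Of these, 1001 were higher at 4 dpl (2.24% of those tested) and 641 were lower (1.44%). Rises made up 61.0% of the changes. This balance depended on which group a library was left out of. Without 1 dpl replicate 1, 2 or 3 rises made up 71.6%, 78.6% and 71.3% of the changes. Without 4 dpl replicate 1 the balance turned, with 146 rises and 149 falls (49.5% rises). Without 4 dpl replicate 2 or 3 it was 53.2% and 57.1%. The median log2 fold change was 2.15 among the rises and -2.01 among the falls, and 0.01 over all transcripts tested. Large changes were common in both directions: 529 of the rises and 324 of the falls were at least 2 on the log2 scale, which is 4-fold, and 147 and 68 were at least 4, which is 16-fold. A change of 4-fold did not by itself pass the test, since 853 of the 3956 transcripts with such a change did so. The fitted changes of 4-fold or more that did not pass were more often falls, as 1809 transcripts had such a rise and 2147 had such a fall in all.

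For every transcript that passed, the values of the groups did not overlap. Over all tested transcripts, every 4 dpl library lay above every 1 dpl library for 7097 (15.9%) and below for 6013 (13.5%). At an unadjusted p under 0.05, 9739 transcripts differed. With 1 library left out, fewer transcripts than 1642 passed at an adjusted p under 0.05 (limma). The number was 486 without 1 dpl replicate 1 (1.09% of those tested), 351 without 1 dpl replicate 2 (0.787%) and 652 without 1 dpl replicate 3 (1.46%). It was 295 without 4 dpl replicate 1 (0.662%), 333 without 4 dpl replicate 2 (0.747%) and 275 without 4 dpl replicate 3 (0.617%). Of the 1642 transcripts, 155 passed in all 6 of these fits as well, 107 rises and 48 falls.

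Most transcripts that passed had values above 0 at both times. Of the 1642, 22 (1.34%) were at 0 in at least 1 of the 6 libraries, against 141 (0.316%) of all transcripts tested. A single one was at 0 in all 3 libraries of 1 dpl, and a single one was at 0 in all 3 of 4 dpl. A low level at one time was more frequent: 2688 tested transcripts had a mean under 20 at 1 dpl, of which 230 rose, and 3944 had a mean under 20 at 4 dpl, of which 105 fell. These transcripts passed the minimum only through the other time, so their counts carry no weight on their own.

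The share of transcripts that passed grew with the level. Between mean values of 20 and 50 it was 0.802% (68 rises and 42 falls), between 100 and 500 it was 4.39% (411 and 263), between 500 and 2000 it was 9.23% (253 and 179), and from 10000 upwards it was 19.3% (28 and 21 of 254 transcripts). The standard error of the log2 fold change fell along the same bins, from a median of 0.73 to a median of 0.12. The changes that passed were smaller at high levels, with a median size of 3.55 on the log2 scale in the lowest bin and 0.97 in the highest. Rises were the majority in each of the 6 bins, at 57.1% to 69.8% of the changes. In the plot of fold change by level, the transcripts that passed lie outside a wedge that narrows as the level grows.

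**Figure D2:**
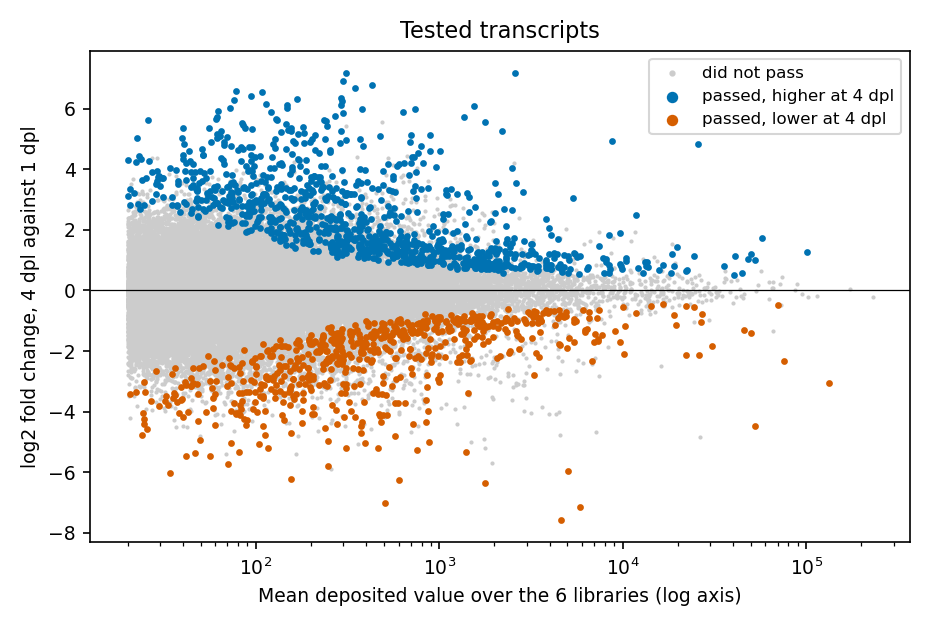
The log2 fold change of 4 dpl against 1 dpl (y axis) against the mean deposited value over the 6 libraries (x axis, log scale) for the 44589 transcripts tested. Blue points passed with a rise (1001), orange points passed with a fall (641) and grey points did not pass, and the smallest change that passed shrinks from left to right.

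The transcripts that passed also moved a part of the whole signal. Those that rose held 4.61%, 4.77% and 4.42% of the column total in the 3 libraries of 1 dpl and 11.2%, 11.3% and 10.6% in those of 4 dpl. Those that fell held 9.96%, 9.21% and 9.10% at 1 dpl and 3.23%, 3.24% and 3.58% at 4 dpl. These shares are a description, since the transcripts were called on the same values. A small spread within each time favours a call, so the closeness of 1 dpl replicate 3 to its group here follows in part from the call. In intact replicates 1 and 2, which the test did not use, the rising transcripts held 4.68% and 4.55% and the falling ones 7.91% and 8.95%, within or below the range at 1 dpl and far from that at 4 dpl. Abundant transcripts weigh most in such sums, and 8 of the falls alone held 2.86% and 3.90% in intact replicates 1 and 2. Counted by transcript, the mean of these intact libraries was nearer to the 1 dpl mean for 45.9% of the falls on the log2 scale. Among the 100 transcripts with the highest mean value, which together held 21.7% of the signal, 12 rose and 12 fell. Over all transcripts tested 2.24% rose and 1.44% fell, but the share that passed grew with the level. From a mean value of 10000 upwards 28 rose and 21 fell of 254, so the counts among the 100 are not read as particular to them. The median size of the log2 fold change of the 100 was 0.27.

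The greatest rise was that of mRNA136072, which was nearly absent at 1 dpl. In replicates 1, 2 and 3 it was at 2.97, 2.61 and 4.27 at 1 dpl, and at 729, 546 and 576 at 4 dpl. The groups lay far apart, at 3.28 ± 0.871 (SD, n = 3) and 617 ± 98.3 (SD, n = 3). The change came to 7.18 on the log2 scale (standard error 0.44, limma adjusted p = 0.00384). With a 1 dpl mean under 20, this transcript passed the minimum only through its 4 dpl values. In intact replicates 1 and 2 its value was 14.8 and 12.8, above every 1 dpl library and below every 4 dpl library.

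The rises ranked 2 to 5 had log2 fold changes of 6.68 to 7.17. The adjusted p (limma) did not exceed 0.00814 in any of them, and all passed with any 1 library left out. Those ranked 3 to 5 had 1 dpl means of 4.19, 7.91 and 5.51, so they passed the minimum of 20 only through 4 dpl. The rise ranked 2 stood out by its level: it was at 20.5, 70.7 and 26.4 at 1 dpl and at 6501, 4594 and 4244 at 4 dpl. Here 1 dpl replicate 3 lay between the other libraries of its group, whereas it was the highest of them for mRNA136072. Its values in intact replicates 1 and 2 were 32.6 and 38.8, inside the range of the 1 dpl libraries.

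Among rises of at least 4-fold, the highest mean value was that of MSTRG.134007.1, a transcript with a StringTie ID. At 1 dpl it was at 1231, 2251 and 1801 (replicates 1, 2 and 3), and at 4 dpl at 54040, 55548 and 39638. The means were 1761 ± 511 (SD, n = 3) and 49742 ± 8783 (SD, n = 3), 28.2-fold apart, and the log2 fold change was 4.85 (standard error 0.24, limma adjusted p = 0.00384). Intact replicates 1 and 2 were at 19.5 and 14.4, under every 1 dpl library, so its level was ordered intact, 1 dpl, 4 dpl with no overlap.

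The next 4 transcripts in this order of level had means of 6397 to 20061 at 4 dpl and of 575 to 3565 at 1 dpl. The one with the steadiest early level was at 1133, 1168 and 1095 at 1 dpl and at 11926, 7910 and 8740 at 4 dpl. Its 3 early libraries differed by less than their distance to any later one, and its intact values of 727 and 820 were lower than both. Another, which rose from 365, 804 and 555 at 1 dpl to 19353, 17159 and 14067 at 4 dpl, was at 12.4 and 5.87 in intact replicates 1 and 2.

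The greatest fall was that of mRNA136986. At 1 dpl it was at 3185, 11269 and 13183 (replicates 1, 2 and 3), and at 4 dpl at 24.0, 24.5 and 104. The early libraries were spread over a wide range, with replicate 3 the highest, and the group means were 9212 ± 5307 (SD, n = 3) and 50.8 ± 46.1 (SD, n = 3). The change came to -7.58 on the log2 scale (standard error 0.74, limma adjusted p = 0.00880), and -7.21 (adjusted p = 0.0331) without 1 dpl replicate 3. Intact replicates 1 and 2 were at 127 and 104, under every 1 dpl library, and 4 dpl replicate 3 was level with the lower intact library.

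The falls ranked 2 to 5 had log2 fold changes of -7.15 to -6.27. Some of their early levels were uneven, and none of the 4 passed in every fit with 1 library left out. The fall ranked 4 was at 195, 8890 and 1572 at 1 dpl and at 19.9, 19.2 and 11.0 at 4 dpl. Its adjusted p was 0.0453 (limma). This became 0.0795 without 1 dpl replicate 2, 0.110 without 1 dpl replicate 3 and 0.125, 0.118 and 0.128 without 4 dpl replicates 1, 2 and 3. The fall ranked 3 was at 664, 1360 and 984 at 1 dpl and at 2.21, 37.3 and 2.37 at 4 dpl, and its adjusted p of 0.0193 (limma) became 0.059, 0.0715 and 0.061 without 1 dpl replicates 1, 2 and 3, and 0.0667 and 0.0657 without 4 dpl replicates 1 and 3. The fall ranked 2 was lost without 1 dpl replicate 2 alone (adjusted p = 0.0511, limma). The fall ranked 5 was lost without 1 dpl replicate 1 (0.0637) and without 4 dpl replicates 1, 2 and 3 (0.0585, 0.0645 and 0.0657), and passed without 1 dpl replicate 3. The loss of these calls was thus not particular to 1 dpl replicate 3. The falls ranked 3 to 5 had 4 dpl means of 13.9, 16.7 and 10.2, so they passed the minimum of 20 only through 1 dpl.

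Among falls of at least 4-fold, the highest mean value was that of mRNA164218. At 1 dpl it was at 256767, 185539 and 265127 (replicates 1, 2 and 3), and at 4 dpl at 29945, 13916 and 51639. The groups did not overlap, at 235811 ± 43737 (SD, n = 3) and 31833 ± 18932 (SD, n = 3), with a change of -3.07 on the log2 scale (standard error 0.44, limma adjusted p = 0.0200). Intact replicates 1 and 2, at 235102 and 307538, were within and above the range of the 1 dpl libraries. Intact replicate 3, which the study excluded, was at 32750, inside the range of the 4 dpl libraries. It did not pass in 4 of the 6 fits with 1 library left out. The adjusted p (limma) was 0.0668, 0.0608 and 0.0645 without 1 dpl replicate 1, 2 or 3 and 0.0717 without 4 dpl replicate 1. The log2 fold change was -3.51 to -2.57 over these 6 fits.

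The next 4 falls in this order of level came from 2 kinds of early level. For 2 of them intact replicates 1 and 2 were within or above the range at 1 dpl. In intact replicate 3, which the study excluded, these 2 falls were at 22070 and 12195, below every 1 dpl library. One of these was at 111492, 66663 and 123094 at 1 dpl, at 2696, 4882 and 6208 at 4 dpl, and at 94993 and 167372 in intact replicates 1 and 2. For the other 2 the level at 1 dpl was above the intact one. One of those was at 41334, 35608 and 31373 at 1 dpl, at 9223, 7617 and 7568 at 4 dpl, and at 2522 and 742 in intact replicates 1 and 2.

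**Figure D3:**
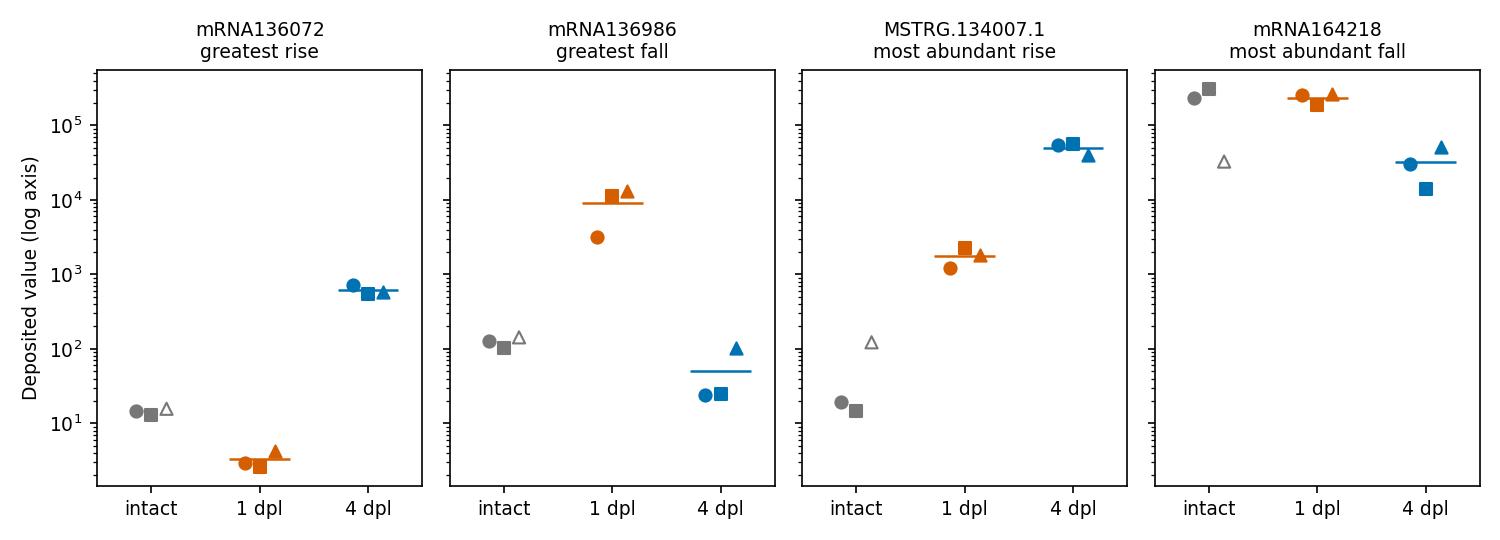
Deposited values (y axis, log scale) of 4 transcripts in each library of intact, 1 dpl and 4 dpl irises. Symbols stand for replicates 1 (circle), 2 (square) and 3 (triangle), lines mark the means at 1 dpl and 4 dpl, and the open triangle is intact replicate 3, which the study excluded. In each panel the 1 dpl and 4 dpl values do not overlap, as for mRNA136072 at 2.61 to 4.27 against 546 to 729.

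The intact libraries, which did not enter the test, place the changes against the uninjured tissue. For each transcript, a position was taken on the log2 scale between the 1 dpl mean (0) and the 4 dpl mean (1). Of the 1001 rises, the mean of intact replicates 1 and 2 was nearer to the 1 dpl mean for 737 (73.6%), against 54.4% of all tested transcripts with a higher mean at 4 dpl. Its median position was 0.17. Of the 641 falls, it was nearer to the 1 dpl mean for 294 (45.9%), against 47.9% of all tested transcripts with a lower mean at 4 dpl, and its median position was 0.58. The same 1 dpl and 4 dpl libraries enter the call and the position, so these shares are a description.

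The falls held transcripts whose 1 dpl mean was well above the intact mean and transcripts for which both were near each other. For 217 of the 641 falls (33.9%), the 1 dpl mean was at least 4-fold above the intact mean, against 12.1% of all tested transcripts with a lower mean at 4 dpl. For 89 of the falls (13.9%, against 4.09%), the 4 dpl mean was in addition within 2-fold of the intact mean. For 265 falls (41.3%, against 58.8%), the intact mean was within 2-fold of the 1 dpl mean. Among the 1001 rises, 425 (42.5%) had a 4 dpl mean at least 4-fold above the intact mean, against 11.4% of all tested transcripts with a higher mean at 4 dpl, and for 267 (26.7%, against 3.93%) the 1 dpl mean was in addition within 2-fold of it. In 318 rises (31.8%, against 61.1%), the 4 dpl mean was within 2-fold of the intact mean, and 80 of these (7.99% of the rises, against 2.86%) had a 1 dpl mean at least 4-fold below it. Transcripts that pass have larger changes than the rest by construction, and no test was made against the intact group. Intact replicate 3, which the study excluded for its alignment rate, had a median position of 0.16 for the rises and 0.79 for the falls, so for the falls it lay nearer to 4 dpl than intact replicates 1 and 2 did, at 0.62 and 0.55.

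Both kinds of ID were found among the changes. Of the transcripts with mRNA IDs 4.07% passed (587 rises and 332 falls), and of those with StringTie IDs 3.29% (414 rises and 309 falls). StringTie groups its transcripts into genes, and 651 of the 11528 StringTie genes tested held a transcript that passed. Of the 4676 genes with at least 2 transcripts tested, 55 had at least 2 that passed, all of them rising in 31 genes and all falling in 19. The remaining 5 genes held transcripts that passed in both directions. Transcripts with mRNA IDs were not assigned to genes here, so these counts cover StringTie IDs alone.

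Library 1 dpl replicate 3 lay apart from its group in several measures. Its mean Pearson correlation with the other libraries of its group, over the tested transcripts, was 0.772, against 0.796 and 0.797 for 1 dpl replicates 1 and 2 and 0.826 to 0.830 for the 4 dpl libraries. It was also less like the libraries of the other time, with a mean correlation of 0.691, against 0.722 to 0.745 for the remaining 5 libraries. With intact replicates 1 and 2 its correlation was 0.670 and 0.678, whereas the other 5 libraries had 0.714 to 0.749. It was thus less like the other libraries throughout, and still more like those of 1 dpl than those of 4 dpl or the intact iris. Transcripts are not independent replicates, so these correlations are given as a description.

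Other measures moved with it. It had the highest column total, at 22023400, and the most transcripts above 0, at 131946 against 89307 (1 dpl replicate 1, the fewest) to 120827. Of all transcripts, 13868 were above 0 in it and in none of the other 5 libraries, against 1674 to 5105 in each of those, and 184 of these were above 20, against 0 to 2. The part of these measures in its distance was not tested.

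The distance of 1 dpl replicate 3 was spread over many transcripts. It differed by at least 4-fold from the mean of the other 2 libraries of its group at 6170 transcripts, 2921 above and 3249 below, which is 13.8% of those tested. The same share was 9.95% and 9.66% in 1 dpl replicates 1 and 2 and 8.37% to 8.84% in the 4 dpl libraries. Its median absolute deviation was 0.94 on the log2 scale at mean values of 20 to 50, against 0.81 in each of the other 1 dpl libraries. It was also the highest of the 1 dpl libraries at 500 to 2000, with 0.28 against 0.24 and 0.21, and at 2000 to 10000, with 0.18 against 0.17 and 0.15. From 10000 upwards (254 transcripts) its median was 0.13, below the 0.15 of both others, although 0.394% of these transcripts were at least 4-fold above and 0.787% at least 4-fold below the rest of its group. The transcripts at which a 1 dpl library departed by 4-fold had a similar level in each library, with a median mean value of 67.3, 66.0 and 67.0 for replicates 1, 2 and 3.

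**Figure D4:**
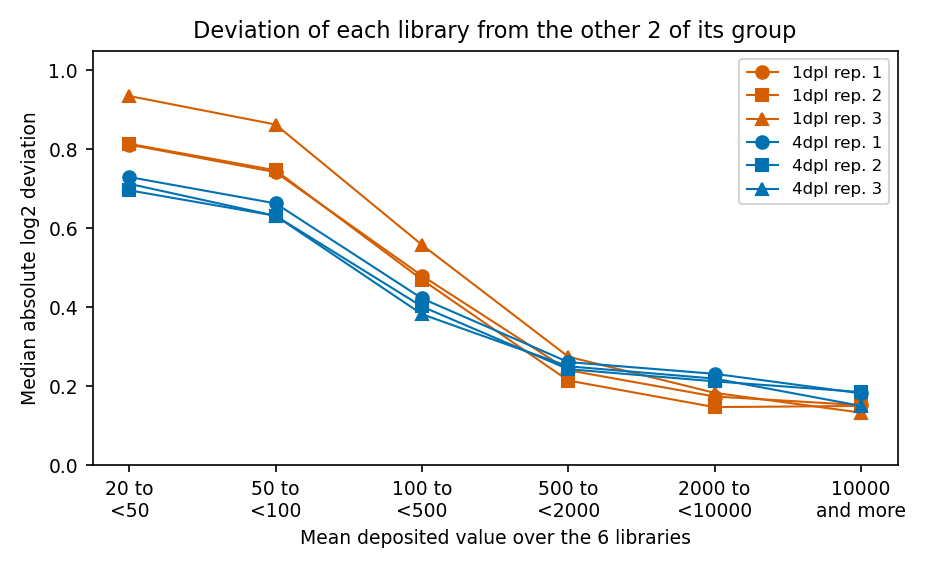
Median absolute deviation, on the log2 scale, of each library from the mean of the other 2 libraries of its group (y axis) in 6 bins of the mean deposited value (x axis). Orange lines are 1 dpl and blue lines 4 dpl, and 1 dpl replicate 3 is the highest 1 dpl line in the first 5 bins (0.94 in the first) but not in the last (0.13).

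Of the 6170 transcripts at which 1 dpl replicate 3 departed from its group, 30 passed the test between the times, or 0.486%, and this share was 0.203% to 0.564% for the transcripts at which each of the other libraries departed. A wide spread within a group makes it harder to pass, so low shares follow from the test itself. Where replicates 1 and 2 were within 2-fold of each other and replicate 3 was at least 4-fold above them (1321 transcripts), the 4 dpl mean was above replicates 1 and 2 by a median of 0.36 on the log2 scale. For the transcripts at which each of the other 5 libraries stood above its group in this way, the other group lay above by 0.98 to 1.51. Where it was below (1724 transcripts), the median was -0.55, against -1.12 to -0.64. No test was made of these differences.

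How far 1 dpl replicate 3 drove the change between the times was measured by leaving it out of the choice of transcripts. With 3 libraries of 4 dpl and 1 dpl replicates 1 and 2, 652 transcripts passed, 465 rises and 187 falls, which is more than without any other single library. At each of them, the position of the library left out was taken between the mean of its own group (0) and that of the other group (1). For 579 of the 652 transcripts (88.8%), 1 dpl replicate 3 lay nearer to 1 dpl than to 4 dpl, and its median position was 0.09. For 13 of them it lay beyond the 4 dpl mean. Its values were therefore on the 1 dpl side at most of the transcripts that passed in the fit without it.

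The other libraries, each left out in the same way, gave 85.6% and 87.7% for 1 dpl replicates 1 and 2, with median positions of 0.08 and 0.11. The libraries of 4 dpl gave 86.4%, 88.0% and 88.4%, with median positions of 0.04, 0.09 and 0.11. Over all tested transcripts, called or not, the share lay between 58.4% and 63.2%. With 1 dpl replicate 3 left out, the median change of the 652 transcripts was 2.86 on the log2 scale, and the same transcripts differed between 4 dpl and 1 dpl replicate 3 by a median of 2.29. Such a decline was seen for each library left out, from 2.84 to 3.47 in the fits to 2.21 to 2.74 in the library left out.

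**Figure D5:**
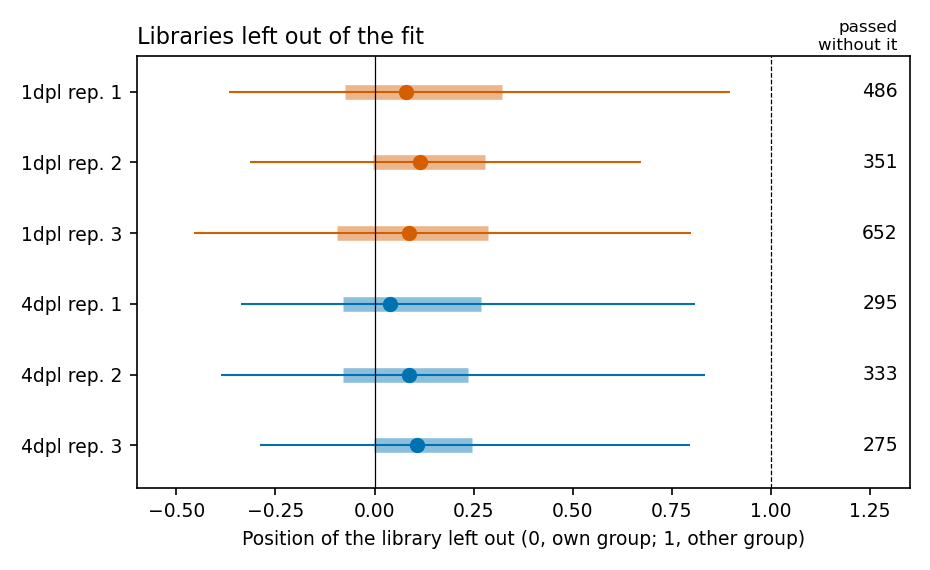
Position of each library (rows; 1 dpl orange, 4 dpl blue) at the transcripts that passed when it was left out, between its own group mean (0, solid line) and the other group mean (1, dashed line) on the log2 scale. Points are medians, thick bars the middle 50% and thin lines the middle 90% of transcripts, numbers at the right count the transcripts, and all 6 medians lie between 0.04 and 0.11.

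The same held for the first principal component. In the components of the other 5 libraries, the first held 41.3% of the variance, the 1 dpl mean was -151 and the 4 dpl mean was 101. Placed on this component afterwards, 1 dpl replicate 3 had a score of -87.2, or a position of 0.25 from its own group to the other. The corresponding positions were 0.37 and 0.36 for 1 dpl replicates 1 and 2 and 0.23 to 0.29 for the 4 dpl libraries. It lay between its own group and the other, as every library did when it was left out, and nearer to its own.

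Of the 1642 transcripts that passed with all 6 libraries, 572 also passed without 1 dpl replicate 3, 411 rises and 161 falls, and a further 80 passed only without it. Without 1 dpl replicate 1 or 2, 420 and 310 of the 1642 passed, and without a 4 dpl library, 248 to 293 did. The 1070 that were lost without 1 dpl replicate 3 had a median adjusted p of 0.0765 (limma) and a highest of 0.123. The median absolute shift of the log2 fold change was 0.10 over the 1642 transcripts, and 67 shifted by more than 0.5. These transcripts were called with 1 dpl replicate 3 in the fit, and a wide spread within a group makes it harder to pass. Small shifts therefore follow in part from the call and are a description. Since the groups did not overlap at any of the 1642, none could change direction when a library was left out.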

How the data were processed

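Dorsal iris RNA was measured in 9 libraries, of which the 3 of 1 dpl and the 3 of 4 dpl were compared. According to the methods, the authors used Trim Galore for trimming, STAR for two-pass alignment against the species' genome, StringTie for assembly and Salmon for quantification (20 Gibbs samples per library, sequence and GC bias correction). For tools and genome build, versions are not given in the sources used here. The deposited values are a normalized signal per transcript and library, named average TPM. The methods describe TPM averaged over inferential replicates, yet the columns sum to about 20 times a TPM total. No value above 0 was whole. The methods give a minimum depth per sample, but not the depth of each library or the number of reads behind a value. No count test was therefore run.

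Values were taken as log2(value + 1), on which fold changes of low transcripts are understated. Transcripts with a mean of at least 20 over the 6 libraries were tested with limma 3.58.1 in R 4.3.3 (lmFit, eBayes with an intensity trend), with Benjamini-Hochberg adjustment over all of them and a threshold of 0.05. The code was tested on simulated data. In each direction, the ID printed was that of the greatest fold change, and that of the highest mean value among changes of at least 2 on the log2 scale, among transcripts past the threshold, above 0 in all 6 libraries and without overlap. Ranks 2 to 5 were given without IDs. The gene names and marker genes foreseen in the plan were not used, because the reference table (assembly aPleWal1.hap1.20221129) matched 0 of the 295141 IDs, and for the same reason no sequences are shown. Members, lists and rules were chosen with earlier results of these data known. Alternatives concerned the pseudocount, the minimum value, scaling, the variance model, the libraries in the fit, a replicate block, sums per StringTie gene and a minimum fold change. Plots were drawn with matplotlib 3.10.9.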

Additional observations from a re-analysis of the deposited data

How the results depend on the processing

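The number of transcripts that passed was 1642 (1001 higher and 641 lower at 4 dpl). It stayed within 1.5 times that number with a pseudocount of 0.1, 5 or 20, a minimum mean of 100, values above 0 in all 6 libraries, 3 ways of rescaling, robust variance estimation and library weights. Rises remained the majority in each of these, at 59.4% to 68.2%, and the highest share came from median-of-ratios rescaling. Without a minimum value 498 passed (327 higher, 171 lower) and with a minimum of 2 it was 957 (580, 377), with more transcripts tested. Without the intensity trend 557 passed (374, 183), and with intact replicates 1 and 2 in the fit 2659 (1588, 1071). Sums per StringTie gene gave 2449 (1448, 1001), of which 59.1% were rises, with 34313 entries tested. A minimum log2 fold change of 1 left 101 (84, 17). With 1 library left out, 275 to 652 passed, 146 to 465 higher and 75 to 187 lower (49.5% to 78.6% higher), and component 1 held 40.4% to 43.0% of the variance. The causes were not tested.

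With the replicate block 0 transcripts passed (0 higher, 0 lower; limma), while 8487 had an unadjusted p under 0.05. Deviations from the group means had correlations of -0.027, 0.0014 and -0.081 between same-numbered libraries. Between libraries of different numbers the correlations were -0.054 to 0.082. The labels do not say whether libraries of the same number share a batch, and this was not tested. With the block, the adjusted p was 0.0574 for mRNA136072, mRNA136986 and MSTRG.134007.1 and 0.0643 for mRNA164218. No direction of a named transcript was reversed under any alternative run. The named transcripts were picked for large changes without overlap between the groups, so this outcome carries little weight. mRNA164218 also failed to pass without the trend (0.0610), with a minimum fold change (0.146) and in 4 of the 6 fits with a library left out.

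The share of transcripts at which a library left out lay on the side of its group moved to 87.8% and 91.3% for 4 dpl replicates 1 and 3 with a pseudocount of 20. With a minimum of 100 it moved to 89.7% for 1 dpl replicate 2 and to 88.5% and 90.4% for 4 dpl replicates 1 and 3. For 1 dpl replicate 3 it was 87.6% to 88.0% in the 3 alternatives that gave a value, each below the 88.8% reported. Without the trend, leaving out any library but 1 dpl replicate 1 left no transcripts, so no share could be given. The mean correlation within groups with a pseudocount of 20 was 0.843, 0.844 and 0.824 at 1 dpl (replicates 1, 2 and 3) and 0.871, 0.872 and 0.871 at 4 dpl. As a Spearman correlation it was 0.744, 0.744 and 0.719, and 0.796, 0.800 and 0.795. With a minimum of 100 it was 0.791, 0.783 and 0.787 at 4 dpl, and component 1 held 40.7%. In each of these, 1 dpl replicate 3 kept the lowest correlation within 1 dpl.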

Other observations

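The numbers in the mRNA IDs increase along the deposited table almost without exception, and some transcripts that passed had near numbers. The share that passed grew with the level, and no comparison at matched level was made here. Of the 587 rises with mRNA IDs, 108 (18.4%) had another rise within 10 numbers, against 11.1% of all tested transcripts with such IDs, and 58 (9.88%) had a fall within 10 numbers, against 7.41%. Of the 332 falls, 66 (19.9%) had another fall within 10 numbers, against 7.41% of all tested, and 58 (17.5%) had a rise, against 11.1%. What the numbers stand for is not stated, and which of them belong to 1 gene is not known.

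The 80 highest mRNA numbers, looked at after their values were seen, held 39 tested transcripts, of which 13 were among the 100 with the highest mean value. Of these 39, 8 fell between 1 and 4 dpl, with log2 fold changes of -6.35 to -0.47, and 1 rose, against 1.44% and 2.24% of all transcripts tested. Of the 100 with the highest mean value, 12 fell and 12 rose, and no comparison at matched level was made. The median log2 fold change of the 39 was -0.21. The 8 falls are not separate from those described above, since 4 of them are among the 12 falls of the 100 with the highest mean value. The fall of -6.35 is the one ranked 4 among the greatest falls. The 8 falls together held 2.96%, 2.36% and 2.89% of the column total in the 1 dpl libraries and 0.554%, 0.520% and 0.806% in the 4 dpl libraries. These 8 were called on the values of the same 6 libraries, so their lower share at 4 dpl follows from the call and is a description. They held 2.86% and 3.90% in intact replicates 1 and 2. In intact replicate 3 they held 1.03%, and 5 of the 8 were lower there than in both other intact libraries.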
